A study of Mus musculus with 6 samples.

Results

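The genes described here are the cadherins numbered in the Cdh series and the alpha and beta chains of the integrins, which hold cells to each other and to the matrix around them. A gene was included where its current symbol, reached through the RefSeq accession on the array, was Cdh followed by digits, Itga or Itgb followed by a digit, or Itgae, Itgal, Itgam, Itgav or Itgax. Genes of integrin-binding proteins (Itgb1bp and Itgb3bp) were left out. The rule found 47 of the 20656 named genes, of which 23 were cadherins and 24 were integrins. Itga10 and Itgae had no probe that could be named through its accession. Each gene was represented by the probe with the highest mean over the 6 arrays. The name "classical cadherins" applies to the 5 type I and 13 type II members, while Cdh13, Cdh16, Cdh17, Cdh23 and Cdh26 are cadherins of other kinds.

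RNA was measured on 1 single-colour array per group, and the groups were fibroblasts treated with Tet3 at 1, 3, 5 and 7 dpi, primary neurons, and untreated mouse embryonic fibroblasts (MEF), all from mice and labelled E13.5. MEF, a mixed culture of mesenchymal cells raised from embryos, came from ICR mice and were the cells that every Tet3 array started from. Per the labels' protocols they were exposed to supernatants with adenovirus on each of 2 days, and some of their medium was replaced by neuronal medium with forskolin on days 3 and 5 after the second exposure. The day from which dpi is counted, and whether the cells at 3 and 5 dpi were taken before or after these changes, are not given in the sources used here. No group received virus without Tet3, so infection, medium and Tet3 cannot be told apart on the Tet3 arrays. A single array per group allows no test, and each difference sets 1 array against 1 other. Precision is limited by this number of arrays.

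Cadherins bind a like molecule on the neighbouring cell through their outer domains, and their tails hold catenins, which tie the contact to actin. Type I members such as Cdh1 (E-cadherin), Cdh2 (N-cadherin) and Cdh3 (P-cadherin) make strong contacts in epithelia, neural tissue and mesenchyme. Type II members are known for combinations that differ between groups of neurons, and Cdh11 is known for mesenchyme. Integrins are pairs of an alpha and a beta chain. The alpha chain largely sets which ligand is bound, collagen, laminin, fibronectin or a counter-receptor on another cell, and talin and kindlin on the beta tail switch the pair on. Fibroblasts grip fibronectin and collagen through pairs with Itgb1, neurons use laminin-binding pairs for axon growth, and the Itgb2 pairs belong to white blood cells.

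Promoter windows are given for 3 genes that the results below turn on: Cdh22 had the largest difference from MEF in the sample labelled 7 dpi, Itga11 had the lowest value of all integrins against MEF on the neuron array, and Cdh15 went with muscle genes. The sequences are from the RefSeq annotation of mouse build GRCm38.p6 and run from 250 bases before to 50 bases after the annotated gene start, 5′ to 3′ on the gene's strand. Capitals mark any match, on either strand, to the 3 motifs searched: the E-box CAGCTG of neural and muscle bHLH factors, the E-box CACCTG of Snai and Zeb factors, and the core GAGGAA of PU.1. Cdh22 lies at chr2:165234688-165234987 on the minus strand, Itga11 at chr9:62677605-62677904 on the plus strand and Cdh15 at chr8:122848124-122848423 on the plus strand.
Cdh22: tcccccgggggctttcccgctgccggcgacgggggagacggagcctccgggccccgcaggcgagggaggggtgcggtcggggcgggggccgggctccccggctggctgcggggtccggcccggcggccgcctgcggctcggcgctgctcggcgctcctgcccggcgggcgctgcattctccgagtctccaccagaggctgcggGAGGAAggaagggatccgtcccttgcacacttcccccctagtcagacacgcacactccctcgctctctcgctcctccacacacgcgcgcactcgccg
Itga11: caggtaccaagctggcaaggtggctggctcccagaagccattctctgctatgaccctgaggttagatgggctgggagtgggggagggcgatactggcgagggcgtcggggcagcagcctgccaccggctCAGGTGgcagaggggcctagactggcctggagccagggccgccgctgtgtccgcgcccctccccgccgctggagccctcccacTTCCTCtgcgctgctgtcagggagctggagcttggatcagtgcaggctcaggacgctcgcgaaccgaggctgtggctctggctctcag
Cdh15: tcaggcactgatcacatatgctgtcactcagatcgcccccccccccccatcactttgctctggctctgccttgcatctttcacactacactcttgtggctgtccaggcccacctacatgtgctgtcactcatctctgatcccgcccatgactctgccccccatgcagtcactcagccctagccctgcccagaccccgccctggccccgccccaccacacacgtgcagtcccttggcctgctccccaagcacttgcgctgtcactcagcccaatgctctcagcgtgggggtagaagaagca

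The Cdh22 window held 38 CpG dinucleotides, against 16 for Itga11 and 7 for Cdh15. The median was 12 over the 35 windows found for 31 of the 47 genes and 7 over all 32851 windows. CAGCTG was in 28.6% of the member windows and 16.3% of all windows, CACCTG in 25.7% and 20.2%, and GAGGAA in 45.7% and 28.3%. A match is a run of letters and not a known site.

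The arrays held 39409 usable probes, of which 72.9% to 84.3% were well above background on the Tet3 arrays, 86.1% on the neuron array and 75.5% on the MEF array. Of the 47 genes, 33 were well above background on all 6 arrays, 11 on some of them and 3 on none, which were Cdh1, Cdh23 and Itgb2l. Levels are log2 values on which 0 is the 75th percentile of the array, and a level is compared here only with that of the same probe on another array. A difference is a measured one where both arrays were well above background, and a bound, written "at least", where only 1 was. Genes with a difference or bound of at least 2-fold are counted. By the scanner's error model, the array error of a measured member difference was 0.20 to 0.40 on the log2 scale, which leaves out differences between cultures. MEF and 1 dpi were read in one scan and the other 4 arrays in another, so for 3, 5 and 7 dpi and neurons over MEF the scan cannot be told apart from the group. In bulk RNA, fewer cells of a type and less RNA per cell cannot be told apart.

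Tet3 itself, a dioxygenase that oxidises 5-methylcytosine, was 2.56-fold of MEF at 1 dpi by its brightest probe, 3.89-fold at 3 dpi and 6.94-fold at 5 dpi. A second probe was 0.73-fold, 1.24-fold, 1.28-fold and 1.33-fold of MEF at 1, 3, 5 and 7 dpi, and the dimmest was at least 24.3-fold, 44.2-fold and 116-fold at 1, 3 and 5 dpi and not well above background at 7 dpi or in MEF. In the sample labelled 7 dpi the brightest probe was 1.23-fold of MEF, so this sample is called by its label. Neuron markers were at least 2-fold higher than in MEF for 4 of 12 genes at 1 dpi, 9 of 12 at 3 dpi, 11 of 14 at 5 dpi, 13 of 14 in the sample labelled 7 dpi and 14 of 14 in neurons. All genes had 5.38%, 16.3%, 17.9% and 17.0% higher at those times and 30.1% in neurons. All 10 fibroblast markers were at least 2-fold lower in neurons, against 16.1% of all genes. At 1, 3, 5 and 7 dpi 0, 4, 0 and 0 of them were lower, against 5.98%, 9.82%, 8.21% and 6.83% of all genes. The 4 at 3 dpi were Dcn, Lum, Pdgfra and Fap. At the same times 1, 1, 0 and 2 were higher, against 5.38%, 16.3%, 17.9% and 17.0%. The neuron array also had all 7 astrocyte markers and 5 of 6 choroid plexus and ependymal markers at least 2-fold above MEF, against 30.1% of all genes. By these markers the neuron array was therefore not of neurons alone.

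In the sample labelled 7 dpi, 9 of the 42 members with a difference were at least 2-fold higher than in MEF and 8 were lower, against 17.0% and 6.83% of all named genes. Cadherins made up 6 of the 9 higher genes (Cdh4, Cdh7, Cdh10, Cdh15, Cdh18 and Cdh22), and integrins 5 of the 8 lower ones (Itga4, Itga6, Itga9, Itga11 and Itgb2). The other higher genes were Itga3, Itga7 and Itgb6, and the other lower ones were Cdh3, Cdh5 and Cdh19. The split was 8 higher and 10 lower after quantile normalization and 6 higher and 12 lower after centring each array on its median. Over all genes quantile normalization gave 1406 higher and 1490 lower of 17533, and median centring 1555 and 2136 of 17621. Over all 42 members the median difference was 0.08 on the log2 scale, against 0.16 over all genes, and it was -0.24 after quantile normalization and -0.31 after median centring.

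**Figure D1:**
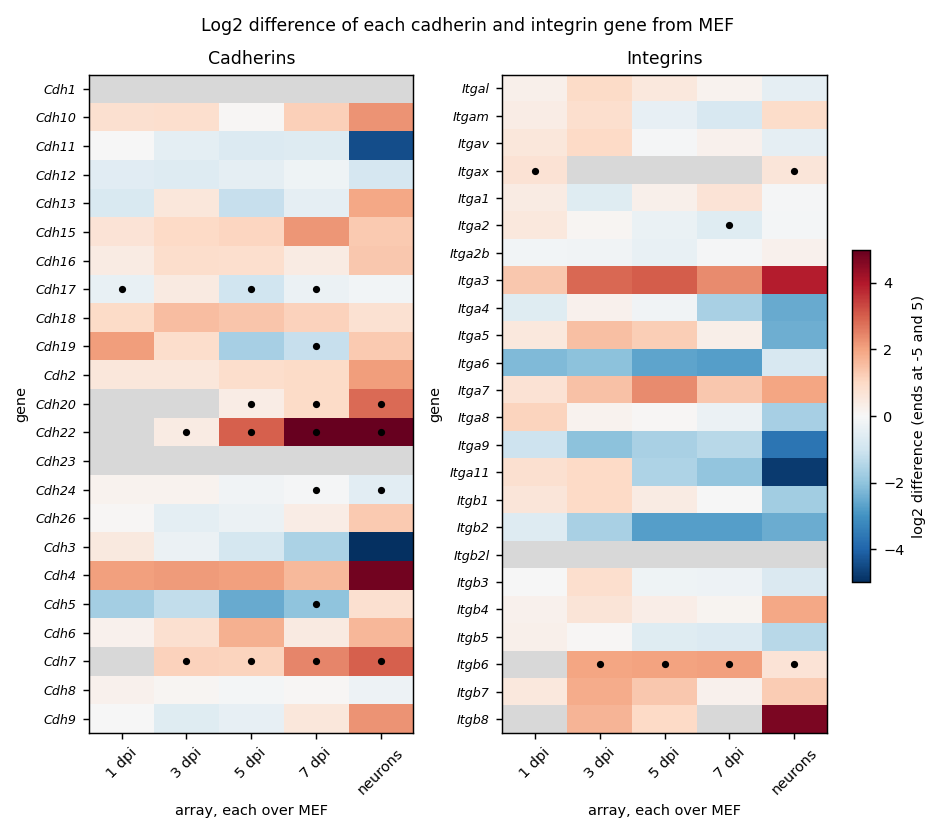
Log2 difference of each cadherin gene (left) and integrin gene (right) from MEF on the arrays of 1, 3, 5 and 7 dpi and neurons, red where higher and blue where lower, with the colour scale ending at -5 and 5, grey where neither array was well above background or no bound could be given, and a black dot on bounds. Cdh22, Cdh4 and Itga3 stand out in red, and Cdh3, Cdh11 and Itga11 are the darkest blue cells of the neuron column.

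At 1 dpi 4 of 39 members were at least 2-fold higher than in MEF (Cdh4, Cdh19, Itga3 and Itga8) and 3 were lower (Cdh5, Itga6 and Itga9), against 5.38% and 5.98% of all genes. At 3 dpi 11 of 42 were higher and 4 lower, against 16.3% and 9.82% of all genes. Integrins accounted for 8 of those 11, or 36.4% of the 22 integrins with a difference: Itgav, Itga3, Itga5, Itga7, Itgb1, Itgb6, Itgb7 and Itgb8. With normexp background correction 3 of 22 integrins were higher and 3 lower at 3 dpi, against 1270 higher and 1500 lower of 18101 genes. At 5 dpi 11 of 43 were higher and 7 lower, against 17.9% and 8.21% of all genes. Several 3 dpi values lay close to the 2-fold line, which is 1 on the log2 scale: Itgb1 and Itgav were both at 1.01 and were counted, while Itga11 and Cdh15 were both at 1.00 after rounding, just under it, and were not. The median difference of the members was 0.36 at 1 dpi, 0.60 at 3 dpi and -0.06 at 5 dpi, against 0.07, 0.20 and 0.20 over all genes. Quantile normalization gave 8 higher and 5 lower at 3 dpi and 7 higher and 11 lower at 5 dpi. Over all genes it gave 1547 higher and 2074 lower of 17495 at 3 dpi, and 1606 and 1900 of 17514 at 5 dpi.

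In neurons 18 of 44 members were at least 2-fold higher than in MEF and 10 were lower, against 30.1% and 16.1% of all genes. Cadherins were higher in 13 of 21 cases, or 61.9%, and lower in 2, Cdh3 and Cdh11. Integrins were higher in 5 of 23 cases and lower in 8, or 34.8%. The split over both families was 14 higher and 17 lower after quantile normalization and 12 and 17 after median centring. Over all genes quantile normalization gave 3264 higher and 3819 lower of 17787, and median centring 2951 and 6845 of 18269. For cadherins alone the split was 9 higher and 5 lower of 21 after quantile normalization, and for integrins 5 higher and 12 lower of 21. More cadherins were thus counted higher than lower, and more integrins lower than higher, under all 3 scalings.

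**Figure D2:**
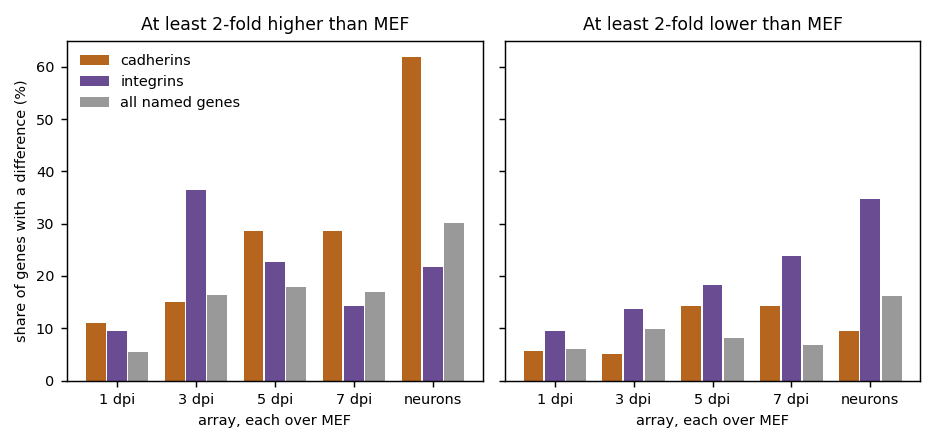
Share of genes with a difference (percent) that were at least 2-fold higher (left) or lower (right) than in MEF, for cadherins, integrins and all named genes, on the arrays of 1, 3, 5 and 7 dpi and neurons. The highest share is that of cadherins in neurons, 61.9% higher against 30.1% of all genes. Integrins reach 36.4% higher at 3 dpi (8 genes) and 34.8% lower in neurons. With normexp background correction 3 of 22 integrins were higher at 3 dpi, against 1270 of 18101 genes.

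Among type I cadherins, Cdh4 (R-cadherin, known in retina and brain) was higher than in MEF on every other array. Its levels were -0.83 at 1 dpi, -0.78 at 3 dpi, -0.83 at 5 dpi, -1.27 in the sample labelled 7 dpi and 1.95 in neurons, against -2.90 in MEF. The differences were 4.20-fold, 4.33-fold, 4.17-fold and 3.08-fold on the Tet3 arrays and 28.7-fold in neurons. The step was present at 1 dpi, on an array of the same scan as MEF, and the 3 later Tet3 values lay within the array error of it or below. A second probe of Cdh4 gave log2 differences of 2.22, 2.22 and 2.19 at 1, 3 and 5 dpi, close to the 2.07, 2.11 and 2.06 of the first. The sample labelled 7 dpi remained 9.29-fold below neurons.

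Cdh2, the main cadherin of neural tissue and also of fibroblasts, was within 2-fold of MEF on all 4 Tet3 arrays. Its levels were 2.12 at 1 dpi, 2.11 at 3 dpi, 2.41 at 5 dpi, 2.49 in the sample labelled 7 dpi and 3.63 in neurons, against 1.54 in MEF. All 5 lay above MEF, by 0.58, 0.57, 0.87 and 0.95 on the log2 scale on the Tet3 arrays and by 4.27-fold in neurons. At 7 dpi the log2 difference was 1.04 after quantile normalization and 1.08 with the mean over probes, both just over 2-fold. The sample labelled 7 dpi was 2.21-fold below neurons.

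Cdh3, which is known for epithelia and placenta, went the other way. It stood at 2.63 at 1 dpi, 1.86 at 3 dpi, 1.29 at 5 dpi, 0.55 in the sample labelled 7 dpi and -4.47 in neurons, against 2.15 in MEF. Each later Tet3 array was lower than the one before. The sample labelled 7 dpi was 3.02-fold below MEF and 2.47-fold below 3 dpi, which was in the same scan, while neurons were 97.9-fold below MEF. Cdh1, which lies next to Cdh3 in the genome, was not well above background on any array.

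Cdh15, the M-cadherin of skeletal muscle precursors, was higher on all later arrays. Its levels were -3.89 at 1 dpi, -3.58 at 3 dpi, -3.49 at 5 dpi, -2.35 in the sample labelled 7 dpi and -3.28 in neurons, against -4.57 in MEF. The difference from MEF was 4.65-fold in the sample labelled 7 dpi, which was also 2.19-fold above 5 dpi in the same scan. Skeletal muscle markers were at least 2-fold above MEF for 5, 8, 6 and 9 of 11 genes at 1, 3, 5 and 7 dpi and for 5 of 10 in neurons. All genes had 5.38%, 16.3%, 17.9% and 17.0% higher at those times and 30.1% in neurons. The muscle markers had a summed linear level of 1.81, 1.65, 4.29 and 9.12 on the Tet3 arrays and 1.64 in neurons, against 0.56 in MEF. Of these markers, the myogenic factors Myog and Myod1 were 2.60 and 1.60 above MEF on the log2 scale in the sample labelled 7 dpi, the embryonic myosin Myh3 was 5.79 above it, and Myf5 was not well above background on any array. The part of muscle cells in the Cdh15 difference was not tested.

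Type II cadherins included the widest range of any member. Cdh22, a cadherin known from brain, was not well above background at 1 dpi or in MEF. It was at -6.21 at 3 dpi, -3.63 at 5 dpi, 0.18 in the sample labelled 7 dpi and -0.66 in neurons. Each of these 4 arrays exceeded what MEF allowed, by at least 7.84-fold at 5 dpi, at least 110-fold in the sample labelled 7 dpi and at least 61.2-fold in neurons, while the bound at 3 dpi was under 2-fold. Within a scan, the sample labelled 7 dpi was 83.8-fold above 3 dpi and 14.0-fold above 5 dpi, and 5 dpi was 5.97-fold above 3 dpi. The sample labelled 7 dpi and neurons differed by 0.85 on the log2 scale, which is under 2-fold. Only 1 probe measured Cdh22.

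Cdh7 was also highest in the sample labelled 7 dpi among the Tet3 arrays. It was not well above background at 1 dpi or in MEF and was at -5.46 at 3 dpi, -5.49 at 5 dpi, -4.17 in the sample labelled 7 dpi and -3.62 in neurons. That was at least 5.39-fold above MEF in the sample labelled 7 dpi and at least 7.89-fold above it in neurons. Cdh20 was not well above background at 1 and 3 dpi or in MEF, and was at -6.24 at 5 dpi, -5.64 in the sample labelled 7 dpi and -3.75 in neurons. It reached 2-fold over MEF in neurons, at least 7.19-fold, and the bound at 7 dpi was 0.95 on the log2 scale.

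The run Cdh6, Cdh9, Cdh10 and Cdh12 lies on chromosome 15 with no other coding gene between neighbours, and Cdh18 follows with 1 gene between. These 5 did not move alike. Cdh10 was 0.80, 0.84, 0.06 and 1.21 above MEF on the log2 scale at 1, 3, 5 and 7 dpi and 2.23 above it in neurons. Cdh9 was -0.03, -0.61, -0.40 and 0.57 from MEF at those times and 2.24 in neurons, or 4.72-fold. Cdh6 had its highest Tet3 value at 5 dpi, 3.44-fold above MEF, and was 2.52-fold lower in the sample labelled 7 dpi than at 5 dpi. Cdh18 was 2.90-fold, 2.60-fold and 2.22-fold above MEF at 3, 5 and 7 dpi and 0.77 on the log2 scale above it in neurons. With normexp background correction or quantile normalization Cdh18 was not counted as higher at 3, 5 or 7 dpi. After median centring it was not counted at 5 or 7 dpi. Cdh10 was not counted at 7 dpi after quantile normalization or median centring. For Cdh12 the levels spanned 0.85 over the 6 arrays and those of Cdh8 spanned 0.48, so neither reached 2-fold in any comparison of these levels. After median centring both reached 2-fold for neurons over MEF, and Cdh12 also after quantile normalization.

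Cdh11, the type II cadherin of mesenchyme, kept near its MEF level on the Tet3 arrays. It was at 4.96, 4.51, 4.31 and 4.34 at 1, 3, 5 and 7 dpi and 0.56 in neurons, against 5.00 in MEF. The sample labelled 7 dpi was thus within 2-fold of MEF (-0.66 on the log2 scale) and 13.7-fold above neurons, while neurons were 21.6-fold below MEF. After median centring the value at 7 dpi was -1.10. Its second probe gave 0.22, -0.10 and -0.29 over MEF at 1, 3 and 5 dpi and -3.77 in neurons.

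Cdh5, the cadherin of endothelial junctions, was lower than MEF on the Tet3 arrays and not in neurons. The levels were -5.72 at 1 dpi, -5.26 at 3 dpi, -6.57 at 5 dpi and -3.23 in neurons, against -4.04 in MEF, and the sample labelled 7 dpi was not well above background. The differences were 3.21-fold, 2.33-fold and 5.78-fold lower at 1, 3 and 5 dpi. The sample labelled 7 dpi was at least 4.07-fold lower, and neurons were 0.81 above MEF on the log2 scale. With normexp background correction Cdh5 was not counted as lower on any Tet3 array. Endothelial markers did not follow Cdh5. In the sample labelled 7 dpi 2 of 6 were at least 2-fold higher than in MEF (Cldn5 and Sox17) and 1 lower (Tek), against 17.0% and 6.83% of all genes. Tie1 was not well above background on any array. The endothelial markers had a summed linear level of 4.42, 5.04, 3.60 and 3.48 on the Tet3 arrays and 2.84 in neurons, against 2.86 in MEF.

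Cdh19, known from Schwann cell precursors, had its highest level at 1 dpi. It stood at -2.83 at 1 dpi, -4.06 at 3 dpi, -6.57 at 5 dpi and -3.60 in neurons, against -4.92 in MEF, and was not well above background in the sample labelled 7 dpi. It was therefore 4.26-fold above MEF at 1 dpi in the same scan, 3.14-fold below it at 5 dpi, at least 2.21-fold below it in the sample labelled 7 dpi and 2.50-fold above it in neurons. With normexp background correction the 1 dpi value was still counted, while those at 5 and 7 dpi and in neurons were not. Within the later scan, 5 dpi was 5.69-fold below 3 dpi. Of the Schwann and neural crest markers reported here, Foxd3 was at least 2-fold above MEF at 1 dpi. Foxd3 and S100b were at least 2-fold below it in the sample labelled 7 dpi. At 5 dpi and in neurons Foxd3 was at least 2-fold below MEF and S100b at least 2-fold above it. The part of such cells in the Cdh19 values was not tested. Cdh24 was within 2-fold of MEF at 1, 3 and 5 dpi, where both arrays measured it, and has only bounds below MEF in the sample labelled 7 dpi and in neurons.

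**Figure D3:**
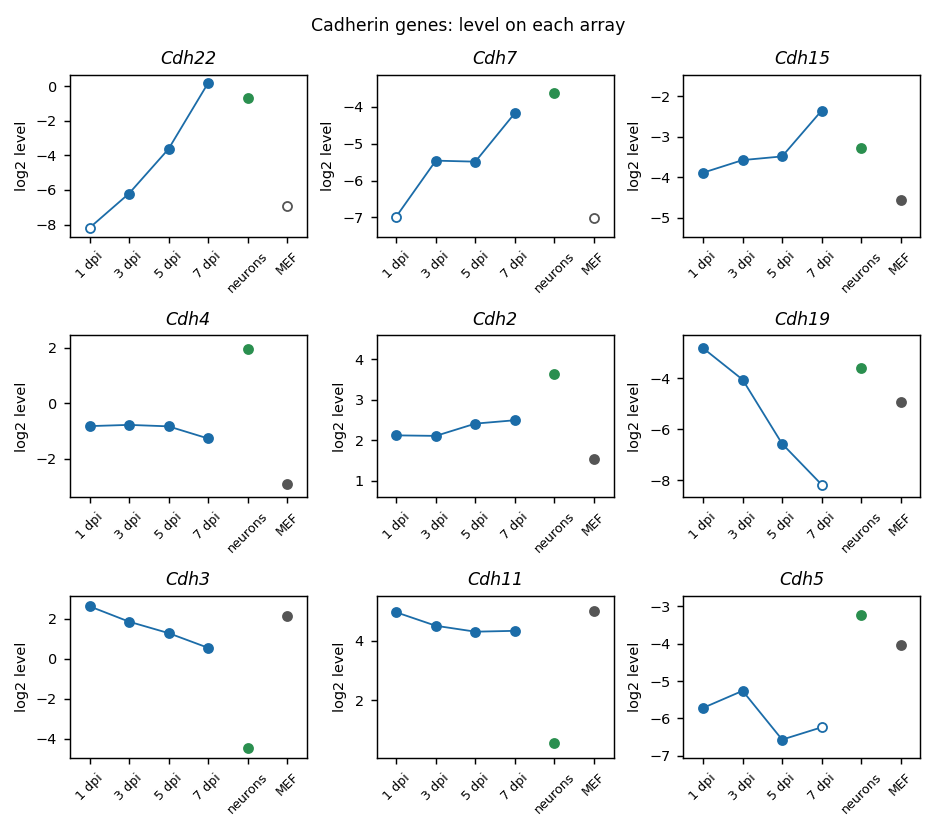
Log2 levels of 9 cadherin genes on each array, 0 being the 75th percentile of the array, with the 4 Tet3 times joined by a line, then neurons and MEF, and open symbols for values not well above background; each panel has its own vertical axis. Cdh22 reaches 0.18 in the sample labelled 7 dpi against -0.66 in neurons, where Cdh3 is at -4.47 and Cdh11 at 0.56, both far below their Tet3 values.

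Of the other cadherins, Cdh13 (T-cadherin, which is anchored to the membrane by a lipid) was at -1.68 at 1 dpi, -0.35 at 3 dpi, -2.05 at 5 dpi, -1.37 in the sample labelled 7 dpi and 1.02 in neurons, against -0.91 in MEF. It was 2.21-fold below MEF at 5 dpi and 3.80-fold above it in neurons, and the sample labelled 7 dpi was 5.23-fold below neurons. Cdh16 and Cdh26 stayed within 2-fold of MEF on the Tet3 arrays and were 2.56-fold and 2.50-fold above it in neurons. Cdh17 was well above background on 3 arrays and was 0.43 above MEF on the log2 scale at 3 dpi and -0.13 from it in neurons. At 1, 5 and 7 dpi it has only bounds below MEF, the largest at least 1.98-fold at 5 dpi, and quantile normalization counted it as lower at 5 and 7 dpi.

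The 3 laminin-binding alpha chains parted ways. Itga3 was at -4.38 at 1 dpi, -2.86 at 3 dpi, -2.69 at 5 dpi, -3.38 in the sample labelled 7 dpi and -1.80 in neurons, against -5.74 in MEF. It was 2.56-fold, 7.32-fold, 8.26-fold and 5.12-fold above MEF on the Tet3 arrays and 15.3-fold above it in neurons. Itga7, a laminin receptor of muscle that is also found in nerve, was 2.75-fold, 5.20-fold and 2.56-fold above MEF at 3, 5 and 7 dpi and 3.95-fold above it in neurons, with 0.73 on the log2 scale at 1 dpi. Its highest Tet3 value was at 5 dpi, and the sample labelled 7 dpi was 2.03-fold below that. Itga6 ran opposite to both: it was 4.63-fold below MEF already at 1 dpi, in the same scan, and 4.11-fold, 6.24-fold and 6.72-fold below it at 3, 5 and 7 dpi. In neurons Itga6 was 0.81 below MEF on the log2 scale, so the sample labelled 7 dpi was 3.82-fold below neurons as well.

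Among the collagen receptors, Itga11, the fibrillar collagen receptor of fibroblasts, was at 3.18 at 1 dpi, 3.38 at 3 dpi, 0.86 at 5 dpi, 0.42 in the sample labelled 7 dpi and -2.42 in neurons, against 2.39 in MEF. The first 2 times were above MEF by 0.80 and 1.00 on the log2 scale, and the later times were 2.88-fold and 3.91-fold below it. The step lay between 3 and 5 dpi, which were in the same scan and differed by 5.76-fold. The sample labelled 7 dpi was 7.14-fold above neurons, which were 27.9-fold below MEF. Itga2 was at -4.95, -5.39 and -5.81 at 1, 3 and 5 dpi and -5.55 in neurons, against -5.47 in MEF, and was not well above background in the sample labelled 7 dpi, so that its measured differences from MEF were under 2-fold and at 7 dpi only a bound, at least 1.51-fold lower, could be given. The 2 probes of Itga1 disagreed in neurons, where the brighter was 0.05 below MEF and the dimmer 3.60 above it on the log2 scale, and no direction is given for it.

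Of the receptors for fibronectin and other RGD ligands, Itga5, the main fibronectin receptor chain, was at -0.08 at 1 dpi, 0.91 at 3 dpi, 0.64 at 5 dpi, -0.29 in the sample labelled 7 dpi and -3.05 in neurons, against -0.60 in MEF. It was 2.84-fold and 2.37-fold above MEF at 3 and 5 dpi, within 2-fold of it at 1 and 7 dpi, and 5.46-fold below it in neurons. Itgav was at 1.05, 1.51, 0.44 and 0.72 at 1, 3, 5 and 7 dpi and 0.07 in neurons, against 0.50 in MEF, a difference of 2.01-fold at 3 dpi and under 2-fold elsewhere. Itga8 was 2.14-fold above MEF at 1 dpi and 3.13-fold below it in neurons. Itga2b, the platelet chain, spanned 0.61 over the 6 arrays.

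Both chains of the alpha 4 and alpha 9 group were lower in the sample labelled 7 dpi and in neurons. Itga4, which binds Vcam1 and fibronectin, was at -1.08 at 1 dpi, -0.26 at 3 dpi, -0.68 at 5 dpi, -2.11 in the sample labelled 7 dpi and -3.02 in neurons, against -0.49 in MEF. It was within 2-fold of MEF up to 5 dpi and 3.06-fold below it at 7 dpi. Itga9, a receptor for tenascin and osteopontin, was at 0.05, -0.95, -0.53 and -0.31 at 1, 3, 5 and 7 dpi and -2.59 in neurons, against 1.08 in MEF. It was at least 2-fold below MEF at every time, by 2.04-fold at 1 dpi and 4.09-fold at 3 dpi, and by 12.7-fold in neurons. With normexp background correction or quantile normalization the 1 dpi value of Itga9 was not counted as lower.

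Itgb1, the shared partner of most of these alpha chains, was at 3.97 at 1 dpi, 4.36 at 3 dpi, 3.76 at 5 dpi, 3.32 in the sample labelled 7 dpi and 1.60 in neurons, against 3.35 in MEF. Its value in the sample labelled 7 dpi was that of MEF within the array error (-0.03 on the log2 scale), 2.06-fold below 3 dpi and 3.29-fold above neurons. The second probe of Itgb1 gave 1.09 over MEF at 3 dpi, where the first gave 1.01. Itgb5, a vitronectin receptor chain, was within 2-fold of MEF on the Tet3 arrays and 2.64-fold below it in neurons. Itgb4, the partner of Itga6 in hemidesmosomes, was within 2-fold on the Tet3 arrays and 3.80-fold above MEF in neurons, and Itgb3 was within 2-fold of MEF throughout by its brighter probe, while its dimmer probe had a bound of -1.17 on the log2 scale in neurons.

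Itgb6, known for epithelia, was not well above background at 1 dpi or in MEF and was at -4.63, -4.57 and -4.55 at 3, 5 and 7 dpi and -5.93 in neurons. It was at least 3.92-fold, 4.08-fold and 4.14-fold above MEF at these times. That rests on 1 of its 2 probes, since the other was not well above background on any array, and the call was lost when the probes were averaged. Epithelial markers were at least 2-fold above MEF for 3 of 9 genes at 3 dpi, 3 of 10 at 5 dpi and 4 of 9 at 7 dpi (Krt8, Cldn3, Cldn4 and Ocln). All genes had 16.3%, 17.9% and 17.0% higher at these times. The epithelial markers had summed linear levels of 3.53 to 5.03 on the Tet3 arrays and 4.00 in neurons, against 5.36 in MEF. Epcam, one of these markers, was not well above background on any array. The part of epithelial cells in the Itgb6 values was not tested.

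Itgb8, a receptor that activates latent TGF-beta and is known from astrocytes and neural progenitors, was at -4.69 at 3 dpi, -5.39 at 5 dpi and -1.69 in neurons, against -6.39 in MEF, and was not well above background at 1 or 7 dpi. Neurons were 26.1-fold above MEF, and the sample labelled 7 dpi was at least 20.8-fold below neurons. The astrocyte markers had a summed linear level of 2.45 to 3.21 on the Tet3 arrays and 93.4 in neurons, against 2.88 in MEF, and the part of astrocytes in the Itgb8 value was not tested.

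**Figure D4:**
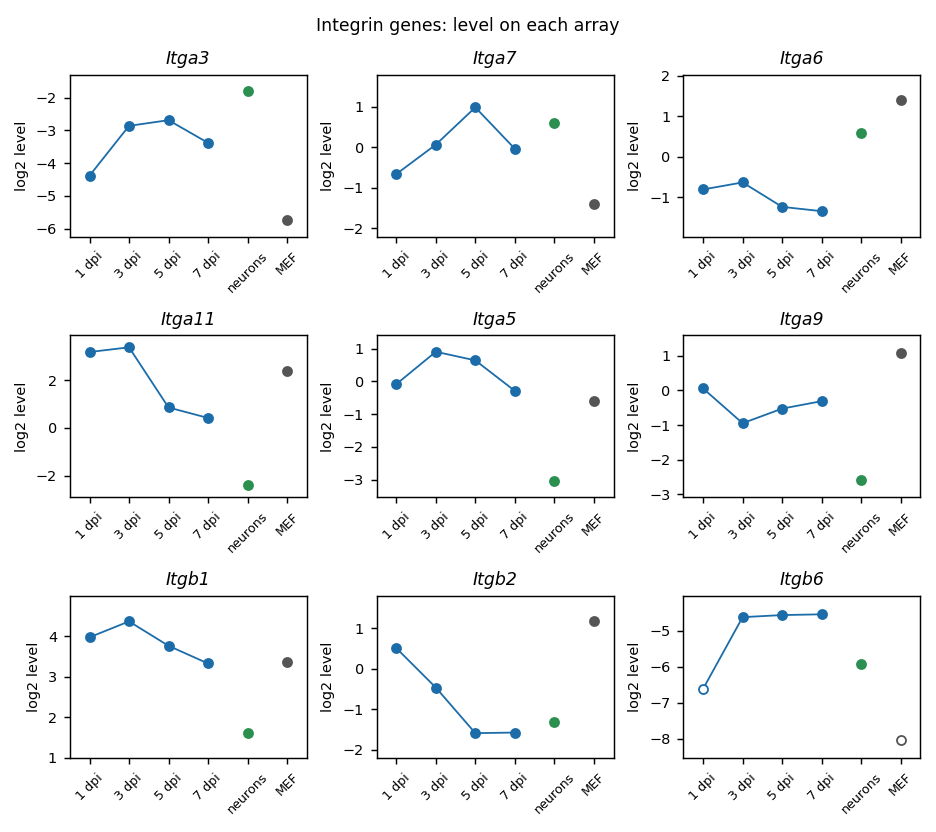
Log2 levels of 9 integrin genes on each array, 0 being the 75th percentile of the array, with the 4 Tet3 times joined by a line, then neurons and MEF, and open symbols for values not well above background; each panel has its own vertical axis. Itga3 and Itga7 lie above MEF on every other array, Itga6, Itga9 and Itgb2 lie below it on every other array, and Itga11 and Itga5 have their highest value at 3 dpi.

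Itgb2, the common beta chain of the white blood cell integrins, was at 0.51 at 1 dpi, -0.47 at 3 dpi, -1.59 at 5 dpi, -1.58 in the sample labelled 7 dpi and -1.31 in neurons, against 1.17 in MEF. It was within 2-fold of MEF at 1 dpi, and 3.10-fold, 6.77-fold and 6.71-fold below it at 3, 5 and 7 dpi, with 5.56-fold in neurons. Macrophage markers moved with it: 13, 13, 14 and 14 of 14 with a difference were at least 2-fold below MEF at 1, 3, 5 and 7 dpi, and 14 of 14 in neurons. All genes had 5.98%, 9.82%, 8.21% and 6.83% lower at those times and 16.1% in neurons. The macrophage markers had a summed linear level of 59.8, 21.6, 3.76 and 2.93 on the Tet3 arrays and 3.74 in neurons, against 326 in MEF. The receptor Csf1r was 5.79 below MEF on the log2 scale in the sample labelled 7 dpi and the complement chain C1qa was 9.52 below it. The white blood cell kindlin Fermt3, which switches Itgb2 on, was 4.00 below MEF there. The part of macrophages in the MEF culture in the Itgb2 difference was not tested.

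Itgam, the alpha chain that pairs with Itgb2 in macrophages, gave no single answer. Its brightest probe was at 3.70 at 1 dpi, 4.19 at 3 dpi, 2.94 at 5 dpi, 2.56 in the sample labelled 7 dpi and 4.27 in neurons, against 3.34 in MEF, and stayed within 2-fold of MEF. A dimmer probe for the same transcript was at -2.65, -3.35, -3.87 and -3.99 at 1, 3, 5 and 7 dpi and -3.56 in neurons, against -2.07 in MEF. That second probe was 1.92 below MEF on the log2 scale in the sample labelled 7 dpi, while the remaining probe, for another transcript, was 0.79 above it. No direction is given for Itgam for that reason. The alpha chain Itgal was within 2-fold of MEF throughout by its brighter probe, and its dimmer probe was 1.27 below MEF at 5 dpi. Itgax, known from dendritic cells, was well above background on 2 arrays only, 1 dpi and neurons. Markers of T cells, which also use Itgal, had summed linear levels of 14.1 to 15.4 on the Tet3 arrays and 11.7 in neurons, against 16.0 in MEF.

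Itgb7, the partner of Itga4 on lymphocytes, was 3.57-fold and 2.52-fold above MEF at 3 and 5 dpi and 2.38-fold above it in neurons, and stood 0.20 above it on the log2 scale in the sample labelled 7 dpi. It was 3.10-fold lower on that array than at 3 dpi.

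**Figure D5:**
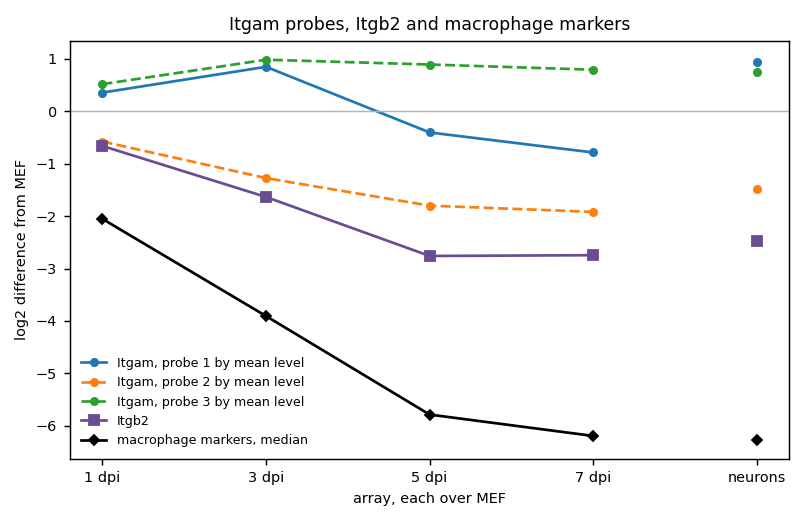
Log2 difference from MEF of the 3 Itgam probes, of Itgb2 and of the median macrophage marker, on the arrays of 1, 3, 5 and 7 dpi (joined by lines, dashed for the dimmer Itgam probes) and neurons. The macrophage median goes down to -6.19 in the sample labelled 7 dpi and Itgb2 to -2.75, while the Itgam probes spread between -1.92 and 0.79.

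Within the later scan, the sample labelled 7 dpi could be set against 3 dpi without a change of scan. Of 22 integrins with a difference, 9 were at least 2-fold lower at 7 dpi and 1 higher (Itga1), and of 21 cadherins 3 were lower and 5 higher, against 7.01% lower and 11.2% higher over all genes. The 9 integrins were Itgam, Itga4, Itga5, Itga11, Itgb1, Itgb2, Itgb3, Itgb7 and Itgb8. Itgam is counted by its brightest probe alone, and its other probes differed by less than 2-fold between these arrays. The same holds for Itgb3, whose dimmer probe was at -4.72 at 3 dpi and -5.41 at 7 dpi. Itga11 was 7.81-fold lower, Itga4 3.59-fold and Itga5 2.29-fold, while Itga6, Itga3 and Itga7 differed by less than 2-fold. The 5 cadherins were Cdh7, Cdh9, Cdh15, Cdh20 and Cdh22. The integrin split for 7 over 3 dpi was 1 higher and 8 lower after quantile normalization, 1 and 9 after median centring, and 1 and 6 with normexp background correction. At 5 over 3 dpi 1 of 43 members was higher (Cdh22) and 9 lower, against 8.09% and 4.56% of all genes. Among the lower ones were Itga11, Itgb2 and Cdh19, and also Itgam and Itgb3 by their brightest probes alone. For 7 over 5 dpi, 4 members were higher (Cdh7, Cdh10, Cdh15 and Cdh22) and 4 lower (Cdh6, Itga4, Itga7 and Itgb7), against 5.88% and 4.64% of all genes.

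Set against neurons in the same scan, the sample labelled 7 dpi had 8 of 43 members at least 2-fold higher and 15 lower, against 14.0% and 19.5% of all genes. The higher ones were Cdh3, Cdh11, Itga5, Itga8, Itga9, Itga11, Itgb1 and Itgb6. All of these but Itgb6 were also well above background in MEF, and Cdh3 (32.4-fold) and Cdh11 (13.7-fold) differed most. Among the 15 lower genes, 9 were cadherins: Cdh2, Cdh4, Cdh5, Cdh6, Cdh9, Cdh10, Cdh13, Cdh19 and Cdh20. The integrins among them were Itga3, Itga6, Itgb4, Itgb7, Itgb8 and, by its brightest probe alone, Itgam, which was no longer counted with the mean over probes. Cdh22, Cdh7 and Itga7 lay within 2-fold of neurons, although Cdh22 was 1.21 above them on the log2 scale after median centring. The split of 7 dpi over neurons was 12 higher and 14 lower after quantile normalization and 14 and 11 after median centring. Over all genes quantile normalization gave 3198 higher and 3096 lower of 17953, and median centring 4082 and 2646 of 18178.

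Of the cadherin-catenin complex, 3 of 11 genes with a difference were at least 2-fold above MEF in the sample labelled 7 dpi and 0 below, which is 27.3% higher against 17.0% of all genes. They were the neuronal catenins Ctnna2 (1.68 on the log2 scale) and Ctnnd2 (1.81) and the nectin adaptor Afdn (1.33). Neurons had 6 of 11 above MEF, or 54.5% against 30.1% of all genes, with Ctnnd2 at 6.59 and Ctnna2 at 3.82, while beta-catenin (Ctnnb1) was -0.32 from MEF in the sample labelled 7 dpi and -0.16 in neurons. At 3 dpi the actin linker Vcl was 2.19 above MEF, and in the sample labelled 7 dpi it was 0.02 above it.

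Integrin adaptors had 5 of 24 genes at least 2-fold above MEF at 3 dpi (Parva, Lims2, Bcar1, Actn1 and Actn4) and 2 below (Fermt3 and Parvg), and 0 above and 3 below in the sample labelled 7 dpi. The 3 dpi shares, 20.8% higher and 8.33% lower, lay near the 16.3% and 9.82% of all genes, and the 7 dpi shares stand against 17.0% and 6.83%. At 3 dpi Actn1, an actin cross-linker of focal adhesions, was 1.85 above MEF and Lims2 was 2.22 above it on the log2 scale. The 3 lower ones at 7 dpi were Fermt3, Parvg and Parvb, and the first 2 are known from white blood cells. Talin 1 (Tln1), which activates integrins, was -0.43 from MEF in the sample labelled 7 dpi and -1.64 in neurons.

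Of the non-collagen ligands, 6 of 29 were at least 2-fold above MEF at 3 dpi and 3 below, and 5 of 28 above and 1 below in the sample labelled 7 dpi. The shares higher, 20.7% and 17.9%, lay near the 16.3% and 17.0% of all genes. The shares lower, 10.3% and 3.57%, stand against 9.82% and 6.83%. Tnc, a tenascin bound by Itga9, was 3.52, 4.15 and 3.55 above MEF on the log2 scale at 1, 3 and 5 dpi and 0.37 above it in the sample labelled 7 dpi. Osteopontin (Spp1), another ligand of Itga9 that macrophages also make, was -1.22, -2.10 and -4.72 from MEF at 1, 5 and 7 dpi. Fibronectin (Fn1) differed from MEF by less than 2-fold on all 4 Tet3 arrays and was 2.72 below it in neurons. The basement membrane laminin Lama4, the nidogen Nid1 and the periostin Postn were -4.66, -3.41 and -5.06 from MEF in neurons and within 2-fold of it in the sample labelled 7 dpi.

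Regulators of the epithelial to mesenchymal transition set the balance of Cdh1 and Cdh2 in many tissues. The list used here joins Snai, Zeb and Twist factors with Grhl2, Ovol1 and Esrp1, which are known from epithelia, so its counts mix both kinds. At 3 dpi 2 of 8 were at least 2-fold above MEF (Snai1 at 1.46 and Snai2 at 1.07), and at 5 dpi 4 of 9 (Snai1, Snai2, Twist2 and Grhl2). In the sample labelled 7 dpi 0 of 7 differed by at least 2-fold in either direction. All genes had 16.3%, 17.9% and 17.0% higher at these times. In neurons Snai1, Snai2, Twist1 and Twist2 differed from MEF by -4.66, -5.53, -4.83 and -7.55 on the log2 scale, and 1 of 9 was above it (Ovol1).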

How the data were processed

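RNA of 6 samples, 1 per group, was labelled with Cy3 and hybridised to 1 Agilent mouse array each. Agilent Feature Extraction 11.0.1.1 is the program that the submitters' processing notes name. The deposited scanner files hold spot intensity after background correction, as the file headers show. The authors' series table holds log2 values with the 75th percentile of each array at 0. The sources used here do not name the step that placed it there. Its column medians were -3.23, -3.00, -2.90 and -2.86 at 1, 3, 5 and 7 dpi, -2.50 for neurons and -3.30 for MEF, and it correlated with the scanner values at r of 0.99998 or more. Its direction and scale are therefore those of the scanner signals. The table also averages spots marked as outliers, which among the members moved Cdh1 by up to 1.38 and not its background call.

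Of 39409 probes, 27222 (69.1%) were named through their RefSeq accession. A probe counted as well above background where more than 0.5 of its spots not marked as outliers were. A bound used the lowest value among probes well above background on the dimmer array. No spot was saturated. Differences were computed with Python 3.11.15, and normexp background correction (offset 50, on median signals) with limma 3.58.1 in R 4.3.3. The calling was tested on simulated data.

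The 47 members, the gene lists and the comparisons were chosen with earlier results of these data known. Levels on all arrays are given for members that span at least 3 on the log2 scale and for 12 picked by name, which overlap with those, except Cdh1 (below background throughout), and up to 4 genes of each other list by their difference at 7 dpi. Other genes named were chosen after their values were seen. Alternatives were scanner signals, normexp, quantile normalization, median centring, a 4-fold threshold, the mean over probes, no filter on dim probes, and a filter that needs both arrays above background. A restriction to brighter genes, with a log2 level of -1 or more on either array, was added later. Some Schwann cell markers are not reported here.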

Additional observations from a re-analysis of the deposited data

How the results depend on the processing

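No paired analysis was possible because each group has 1 array. No called member changed direction under any of the alternatives run. For several of them this was fixed in advance. The 4-fold threshold, the changes of filter and the restriction to brighter genes keep the direction of each difference. Median centring moves differences by less than the 2-fold line. The counts below are of members at least 2-fold higher or lower. With scanner signals in place of the authors' table, with both arrays required above background, or with the mean over probes, all 14 counts kept within 1.5 times. At 4-fold the counts were smaller by construction. Over MEF 2, 2, 5 and 5 members were higher at 1, 3, 5 and 7 dpi and 9 in neurons, and 1, 2, 3 and 3 were lower at those times. For 7 dpi over neurons 5 were higher and 5 lower, and for 7 over 5 dpi 1 was higher and 0 lower. Over all genes it gave 177 higher and 223 lower of 16790 at 1 dpi and 520 and 718 of 18119 at 3 dpi. At 5 and 7 dpi it gave 731 and 591 of 18328 and 727 and 532 of 17484, and in neurons 2518 higher of 18764. For 7 dpi over neurons it gave 955 and 1622 of 18446, and for 7 over 5 dpi 298 and 143 of 17841. Among brighter genes, which leaves fewer to count, 2, 5, 3 and 2 members were higher at 1, 3, 5 and 7 dpi and 8 in neurons. For 7 over 5 dpi 1 was higher and 2 lower, and for 7 dpi over neurons 7 were lower. All brighter genes had 306 higher of 9228, 794 of 9505, 781 of 9561 and 616 of 9545 at those times. They had 2021 higher of 10506 in neurons, and 380 higher and 313 lower of 9316 for 7 over 5 dpi. For 7 dpi over neurons 1791 of 10327 were lower. Normexp gave 4 and 7 members higher at 3 and 5 dpi, and 1 and 4 lower at 1 and 5 dpi. For 7 over 5 dpi it gave 2 higher and 1 lower. The calls lost were mostly of dim members such as Cdh5, Cdh7, Cdh18 and Itgb7. Over all genes normexp gave 1270 higher of 18101 at 3 dpi and 1699 higher and 1215 lower of 18357 at 5 dpi. It gave 750 lower of 16708 at 1 dpi, and 636 higher and 472 lower of 18256 for 7 over 5 dpi. Median centring gave 6 members higher and 11 lower at 5 dpi, 14 higher for 7 dpi over neurons and 17 lower for neurons over MEF. Quantile normalization gave 7 higher and 11 lower at 5 dpi and 17 lower for neurons over MEF. Over all genes median centring gave 1764 higher and 2641 lower of 17986 at 5 dpi, and the other counts over all genes are given above. With no filter, 7 members were lower for 7 over 5 dpi, against 1464 of all 20656 genes. For neurons over MEF, Cdh12, Cdh24, Itgal and Itgb3 were counted only after quantile normalization or median centring, in both of them. Quantile normalization alone added Cdh17, Itgam, Itga2 and Itga2b there, and median centring alone Cdh8, Itgav and Itga6. On the Tet3 arrays, quantile normalization also added Cdh24, Itga2 and Itga2b at 5 dpi, and median centring Itgb5 at 5 and 7 dpi. Calls over MEF were also lost. At 7 dpi both scalings lost Cdh10 and Cdh18, and median centring also Itga7. At 5 dpi both lost Cdh7, Cdh15, Cdh18 and Itgb7, and median centring also Itga5. At 3 dpi both lost Cdh7 and Itgb1, quantile normalization also Cdh18, and median centring also Itgav. At 1 dpi quantile normalization lost Itga9. In neurons both lost Cdh6, Cdh15, Cdh16, Cdh19 and Itgb7, and median centring also Cdh26. The median of the members for neurons over MEF was 0.64 and became -0.47 after quantile normalization, -0.30 after median centring and -0.81 among brighter genes. Over all genes, median centring moved the median for neurons over MEF to -0.59, against 0.25, and for 7 dpi over MEF to -0.27, against 0.16, and the share of calls that were higher at 7 dpi was 71.4%, 48.5% after quantile normalization and 42.1% after median centring. The cause of these shifts was not tested. Members near background, Cdh7, Cdh20, Cdh22 in MEF and Itgb6, are limited by signal over background and have bounds only.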
